A study of Mus musculus with 228 samples.

Results

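A set of 31 genes that astrocytes are known for was followed in single hippocampal neurons whose contents had been drawn into a patch pipette. They were a given list, matched by symbol and drawn up with earlier results of these data known, and all 31 were found among the 22870 genes of the count table. For description they were divided into 18 genes that are largely restricted to astrocytes among brain cells and 13 genes that other brain cells, neurons and microglia included, are also known to express. The RNA came from acute slices of ventral hippocampus of mice aged 3 to 4 months, 1 month after virus injection into the hippocampus. Ascl4 GC cells were granule cells of Calb1-Cre mice that had received a Cre-dependent adeno-associated virus (AAV) for the fluorescent protein EGFP together with AAV-Ascl4, and EGFP GC cells were granule cells of Calb1-Cre mice that had received the EGFP virus alone. Ascl4 CA1 and EGFP CA1 cells were the corresponding pyramidal neurons of medial CA1 in Nex-Cre mice. All 4 groups therefore carried Cre and the EGFP virus, cell type and Cre line cannot be told apart, and no group had a second virus without Ascl4. Ascl4 encodes a transcription factor of the basic helix-loop-helix class. Because the labels name no animals, the cells of a group were treated as 1 sample. Differences are therefore given without a test, and how far animals of a group vary is unknown.

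Astrocytes clear glutamate from synapses and convert it to glutamine, buffer potassium and water, share metabolites through gap junctions, and secrete lipoproteins and matrix proteins. Their fine processes wrap the cell bodies and synapses of neurons. Some of the 31 genes are also transcribed by neurons themselves. The counts hold no mark of whether a read came from the patched neuron, and its source was not tested.

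The quality-controlled table held 51 Ascl4 GC, 47 EGFP GC, 45 Ascl4 CA1 and 46 EGFP CA1 cells, with 1077532 to 25442664 gene-assigned reads per cell. Levels are given as the summed reads of all cells of a group scaled to a total of 1000000 (CPM), or as CPM of a single cell. Intervals of CPM are 95% exact Poisson intervals, intervals of shares of cells are 95% exact Clopper-Pearson intervals, and both cover counting error only, since amplified reads are not independent molecules. The neuronal gene Snap25 reached 10 CPM in every cell of all 4 groups, with medians of 2913 to 3263 CPM. Some cells held little of it, the lowest 22.9 CPM in Ascl4 GC, 65.4 in EGFP GC, 47.3 in Ascl4 CA1 and 19.9 in EGFP CA1. Ascl4 stood at 14111 CPM in Ascl4 GC against 47.2 CPM in EGFP GC cells, and at 9395 CPM in Ascl4 CA1 against 32.6 CPM in EGFP CA1 cells. Single reads were also found in cells that should lack a gene. Neurod6, a pyramidal gene, had a read in 6 of 51 Ascl4 GC and 9 of 47 EGFP GC cells, but reached 10 CPM in 1 and in 0 of them. C1ql2, a granule cell gene, had a read in 10 of 45 Ascl4 CA1 and 13 of 46 EGFP CA1 cells and reached 10 CPM in 3 and in 0. A gene was therefore counted as present in a cell at 10 CPM or more, not at a single read.

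A set of 5 cells stood apart from the rest. They were the only ones with more than 12000 genes with a read, and comprised 4 Ascl4 GC cells with consecutive title numbers and 1 Ascl4 CA1 cell. They held 45195 to 88228 CPM (GC) and 27508 CPM (CA1) of Mbp, the myelin protein of oligodendrocytes, whereas the highest of the other 47 Ascl4 GC cells held 1062 CPM. Snap25 stood at 2572 to 9222 CPM in the 4 GC cells and at 4074 CPM in the CA1 cell. They also held more astrocyte genes than any other cell, 24 to 30 of the 31 and 11 to 17 of the 18 restricted ones at 10 CPM or more. No other cell exceeded 10 restricted genes. The 4 GC cells gave 8.30% of all reads of Ascl4 GC cells but 84.5% of the S100b, 99.2% of the Aqp4 and 100% of the Aldh1l1 reads. Values without these cells are given with the summed levels of the lists and the counts of the 31 genes below. The title numbers of each group were also divided into a first and a second run. They held 33 and 18 Ascl4 GC, 15 and 32 EGFP GC, 17 and 28 Ascl4 CA1 and 15 and 31 EGFP CA1 cells. The second run of Ascl4 CA1 cells joins 2 blocks of title numbers, with numbers of EGFP CA1 cells between them. What a run stands for is not stated in the labels.

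In most neurons few restricted genes were present, while several broad ones were. The median cell held 1 restricted gene at 10 CPM in Ascl4 GC, 2 in EGFP GC, 1 in Ascl4 CA1 and 1 in EGFP CA1 cells, of 18. None was present in 14 of 51 Ascl4 GC, 11 of 47 EGFP GC, 10 of 45 Ascl4 CA1 and 14 of 46 EGFP CA1 cells. At least 5 were present in 9.52% of all cells (5.74 to 14.6%). Of the 13 broad genes the median cell held 7 in Ascl4 GC, 7 in EGFP GC, 8 in Ascl4 CA1 and 8.5 in EGFP CA1 cells. As defining markers of astrocytes, Gfap, Aqp4, Gja1, Gjb6, Aldh1l1, Sox9, Fgfr3 and Slc7a10 were used. At least 1 of them was present in 57.7% of all cells (50.3 to 64.8%) and at least 3 in 6.88% (3.71 to 11.5%). None of the 8 was at 0 in any group. The summed level of the restricted genes was 566 CPM in Ascl4 GC and 558 CPM in EGFP GC cells, and 328 CPM in Ascl4 CA1 and 379 CPM in EGFP CA1 cells. That of the broad genes was 3983 CPM in Ascl4 GC and 4051 CPM in EGFP GC cells, and 5173 CPM in Ascl4 CA1 and 5546 CPM in EGFP CA1 cells. Without the cells over 12000 genes the broad sum was 3145 CPM in Ascl4 GC and 5138 CPM in Ascl4 CA1 cells, and the restricted sum was 332 CPM in Ascl4 GC and 293 CPM in Ascl4 CA1 cells.

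**Figure D1:**
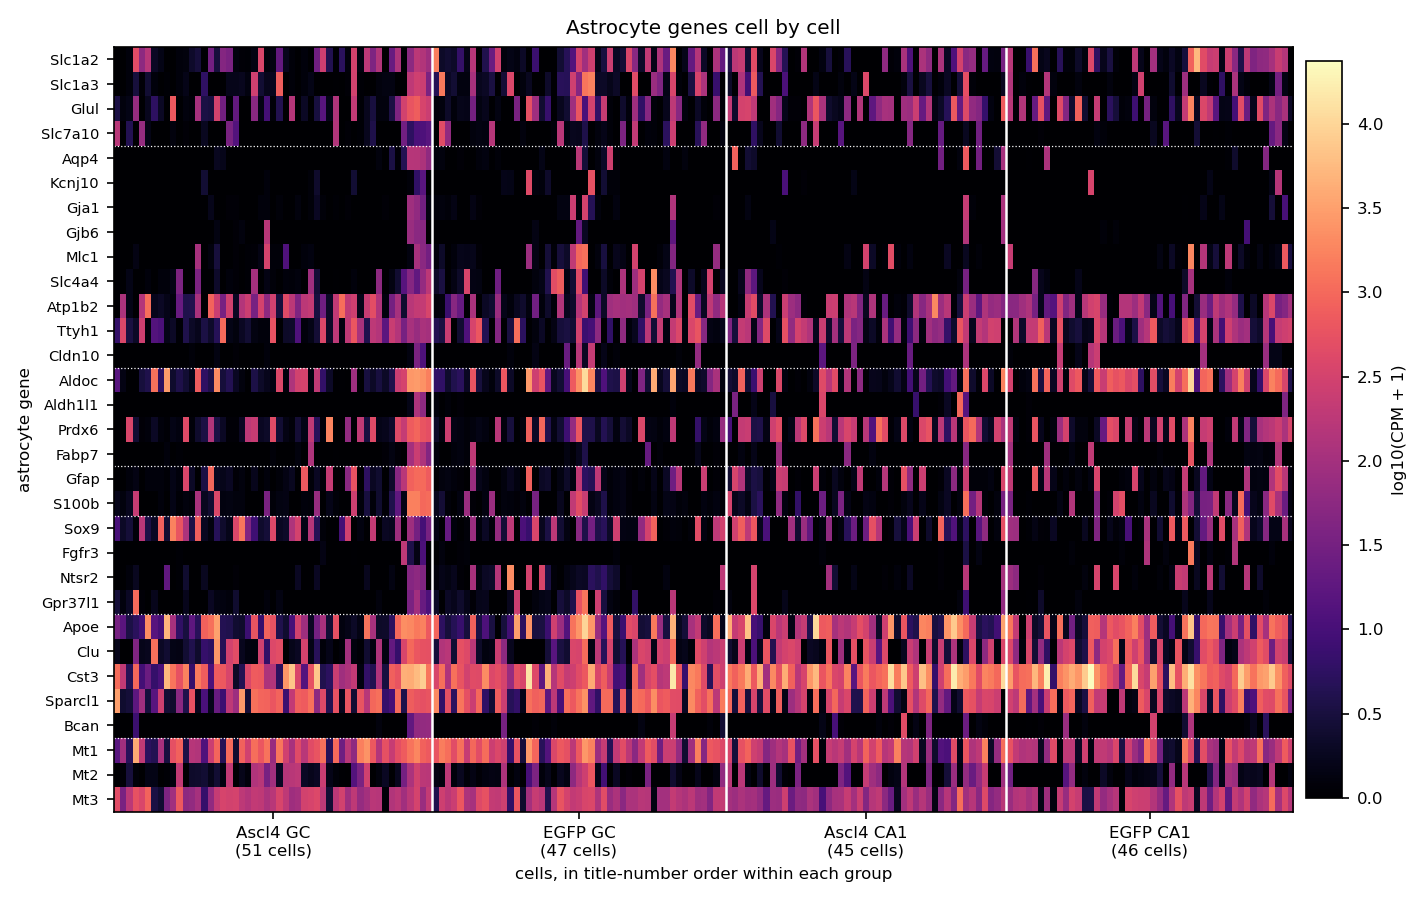
Levels of the 31 astrocyte genes (rows, grouped by role between dotted lines) in all cells (columns), as log10(CPM + 1), with the 4 groups side by side. Cst3, Mt1 and Mt3 fill most columns, most other rows are dark with single bright cells, and a block of 4 adjacent columns at the right end of Ascl4 GC is bright in nearly all rows.

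Per kilobase of annotated exon, averaged over the 4 groups, the order of levels was led by Cst3 (1472 CPM per kilobase), Mt1 (338), Apoe (309), Mt3 (160.5), Sparcl1 (146.9) and Aldoc (106.1). S100b, at 41.8 CPM per kilobase and rank 9, was the highest of the restricted genes, followed by Sox9 (24.1) and Gfap (17.96). The lowest were Kcnj10 (0.93), Fgfr3 (0.61) and Gja1 (0.51). The exon length was the union of all annotated exons of a gene, which lowers the value of genes with long rare isoforms. Neighbours in this order often overlapped in their ranges over the 4 groups, as Mt1 (231.1 to 477) and Apoe (236 to 485) did. The genes also differed in how many cells carried them. Mt3 was present in 89.9% of all cells, Cst3 in 88.9% and Mt1 in 84.1%, and at the other end Kcnj10 and Fgfr3 in 5 cells each, Aldh1l1 in 7, and Gja1 and Gjb6 in 8 each. The 19 highest cells of a gene held 32.8% of the summed per-cell CPM of Mt3 but 99.6% of that of Gja1 and 100% of that of Aldh1l1 and Gjb6.

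**Figure D2:**
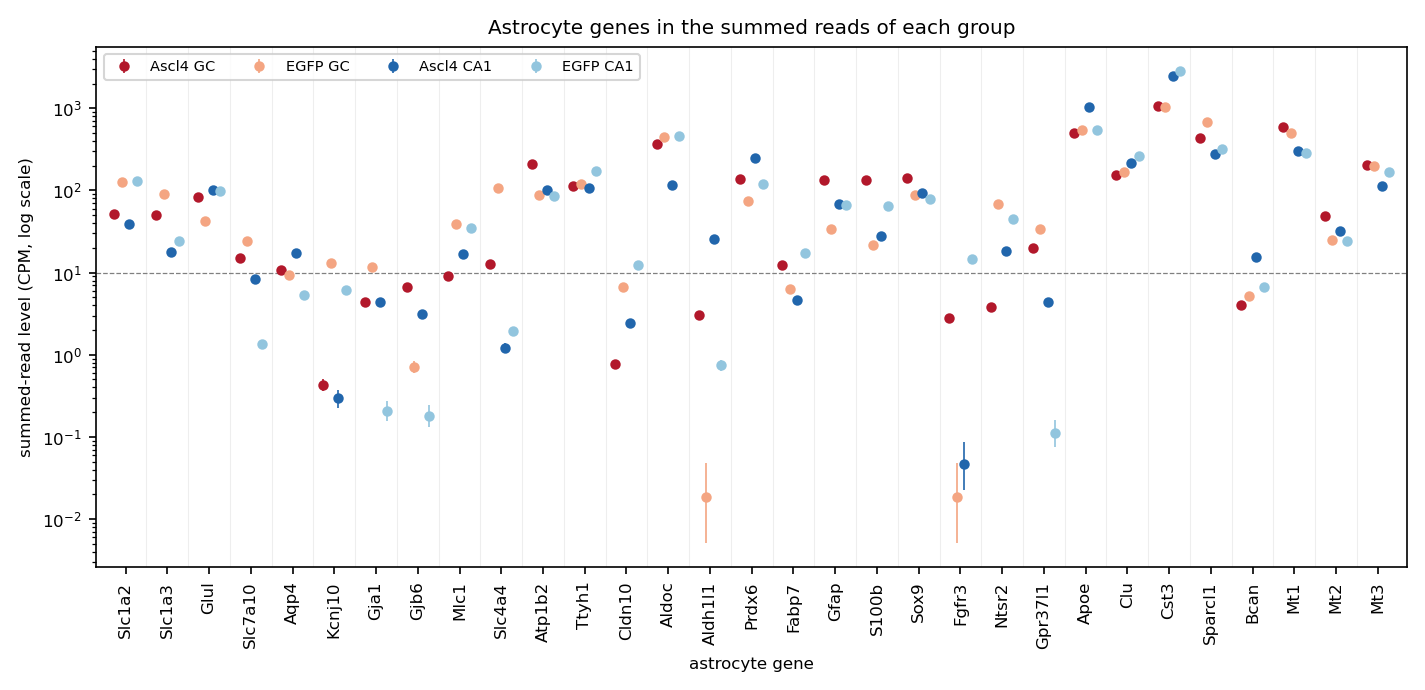
Level of each astrocyte gene in the summed reads of each group (CPM, log scale), with 95% exact Poisson intervals, which are shorter than the symbols for most genes, and a dashed line at 10 CPM. Most broad genes lie within a narrow range across groups, while restricted genes such as Kcnj10, Gja1, Aldh1l1, Fgfr3 and Gpr37l1 spread over more than 1 order of magnitude.

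The metallothioneins are small cysteine-rich proteins that bind zinc and copper. Mt1 and Mt2 are induced by metals and stress through the factor MTF1, and Mt3 is enriched in brain and expressed by neurons too. The 3 genes are neighbours on the plus strand of chromosome 8, at 94179082 to 94180327 (Mt1), 94172664 to 94173568 (Mt2) and 94152607 to 94154146 (Mt3) in GRCm38. The 250 bases before each start annotated by RefSeq (GRCm38.p6, plus strand) are shown because Mt1 and Mt3 were among the 3 most widely detected of the 31 genes and Mt1 and Mt2 levels went together across cells. Of the 31 genes, 25 were found in the promoter table. Capitals mark the core of the metal response element bound by MTF1, TGCACNC or TGCGCNC, on either strand, with no overlapping matches.
Mt1, chr8:94178839-94179088: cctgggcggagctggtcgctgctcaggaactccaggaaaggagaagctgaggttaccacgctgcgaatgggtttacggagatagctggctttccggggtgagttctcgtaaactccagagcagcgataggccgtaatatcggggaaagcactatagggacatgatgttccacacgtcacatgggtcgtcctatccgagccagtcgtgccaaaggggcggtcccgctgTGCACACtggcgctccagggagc
Mt2, chr8:94172368-94172617: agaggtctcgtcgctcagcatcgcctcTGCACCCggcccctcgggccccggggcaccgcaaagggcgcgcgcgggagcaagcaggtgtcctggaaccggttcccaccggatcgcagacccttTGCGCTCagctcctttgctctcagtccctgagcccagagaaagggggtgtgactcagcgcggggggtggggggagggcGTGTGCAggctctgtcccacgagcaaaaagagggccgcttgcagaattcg
Mt3, chr8:94152357-94152606: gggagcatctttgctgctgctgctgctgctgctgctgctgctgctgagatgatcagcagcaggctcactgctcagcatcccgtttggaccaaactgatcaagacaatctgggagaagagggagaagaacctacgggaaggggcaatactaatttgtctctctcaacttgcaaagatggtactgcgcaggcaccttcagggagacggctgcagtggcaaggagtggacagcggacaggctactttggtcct
The window of Mt1 held 1 match, that of Mt2 held 3 and that of Mt3 held 0. The windows are not placed alike against the gene positions above. That of Mt1 ends at 94179088, past the gene start of 94179082, and that of Mt2 ends at 94172617, short of the gene start of 94172664. The counts therefore hold for these windows only and do not rank the promoters of the 3 genes. At least 1 match was found in 21.4% of 32851 promoter windows of this length, and at least 3 in 1.26%. A match is a run of letters, bases after the annotated start were not searched, and binding was not measured.

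Mt1 stood at 595 CPM (592 to 597) in Ascl4 GC and 502 CPM (499 to 505) in EGFP GC cells, and at 298 CPM in Ascl4 CA1 and 288 CPM in EGFP CA1 cells. In single cells, Ascl4 GC held 1.41 to 3972 CPM with a median of 298, and EGFP GC cells 1.51 to 2783 CPM with a median of 388. Ascl4 CA1 cells held 0 to 1760 CPM with a median of 163.2, and EGFP CA1 cells 0.21 to 1373 CPM with a median of 175.2. The ranges of all 4 groups overlapped almost fully. Mt3 was the most even of the 31 genes, at 201.98 CPM in Ascl4 GC and 200.3 CPM in EGFP GC cells and at 113.6 CPM in Ascl4 CA1 and 168.4 CPM in EGFP CA1 cells. At 10 CPM it was found in 46 of 51 Ascl4 GC, 42 of 47 EGFP GC, 42 of 45 Ascl4 CA1 and 40 of 46 EGFP CA1 cells. Mt2 was lower, at 48.2 CPM in Ascl4 GC and 25.2 CPM in EGFP GC cells and at 31.7 CPM in Ascl4 CA1 and 23.97 CPM in EGFP CA1 cells, and was present in 53 cells in all. Across cells, Spearman's rho of Mt1 with Mt2 was 0.50 in Ascl4 GC (51 cells), 0.53 in EGFP GC (47), 0.46 in Ascl4 CA1 (45) and 0.25 in EGFP CA1 cells (46), and without the cells over 12000 genes 0.43 in Ascl4 GC and 0.44 in Ascl4 CA1 cells. Mt1 and Mt2 are similar in sequence, so reads that fit both may have been counted for either or dropped.

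Among secreted proteins, Cst3, an inhibitor of cysteine proteases that microglia make in large amounts as well, was at 1079 CPM in Ascl4 GC cells (1075 to 1083) and 1027 CPM in EGFP GC cells (1023 to 1032). Its CA1 levels were 2484 CPM in Ascl4 CA1 cells (2477 to 2491) and 2863 CPM in EGFP CA1 cells (2857 to 2870). Apoe, the main lipid carrier of the brain, was at 505 CPM in Ascl4 GC and 550.1 CPM in EGFP GC cells, and at 1038 CPM in Ascl4 CA1 and 549.9 CPM in EGFP CA1 cells. Single cells held 0.32 to 5094 CPM of Apoe in Ascl4 GC (median 13.5), 0 to 9625 CPM in EGFP GC (7.93), 0.29 to 10687 CPM in Ascl4 CA1 (226.1) and 0 to 6760.3 CPM in EGFP CA1 (268). It thus varied widely in every group, with 26 of 51 Ascl4 GC, 23 of 47 EGFP GC, 30 of 45 Ascl4 CA1 and 31 of 46 EGFP CA1 cells at 10 CPM or more. Sparcl1 (hevin), which promotes synapse formation, stood at 437 CPM in Ascl4 GC and 687 CPM in EGFP GC cells, and at 279 CPM in Ascl4 CA1 and 324 CPM in EGFP CA1 cells. The lipoprotein chaperone Clu was at 155.1 CPM in Ascl4 GC and 167.1 CPM in EGFP GC cells, and at 213.8 CPM in Ascl4 CA1 and 265.2 CPM in EGFP CA1 cells. Bcan (brevican), a proteoglycan of the matrix around neurons, was present in 12 cells in all.

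**Figure D3:**
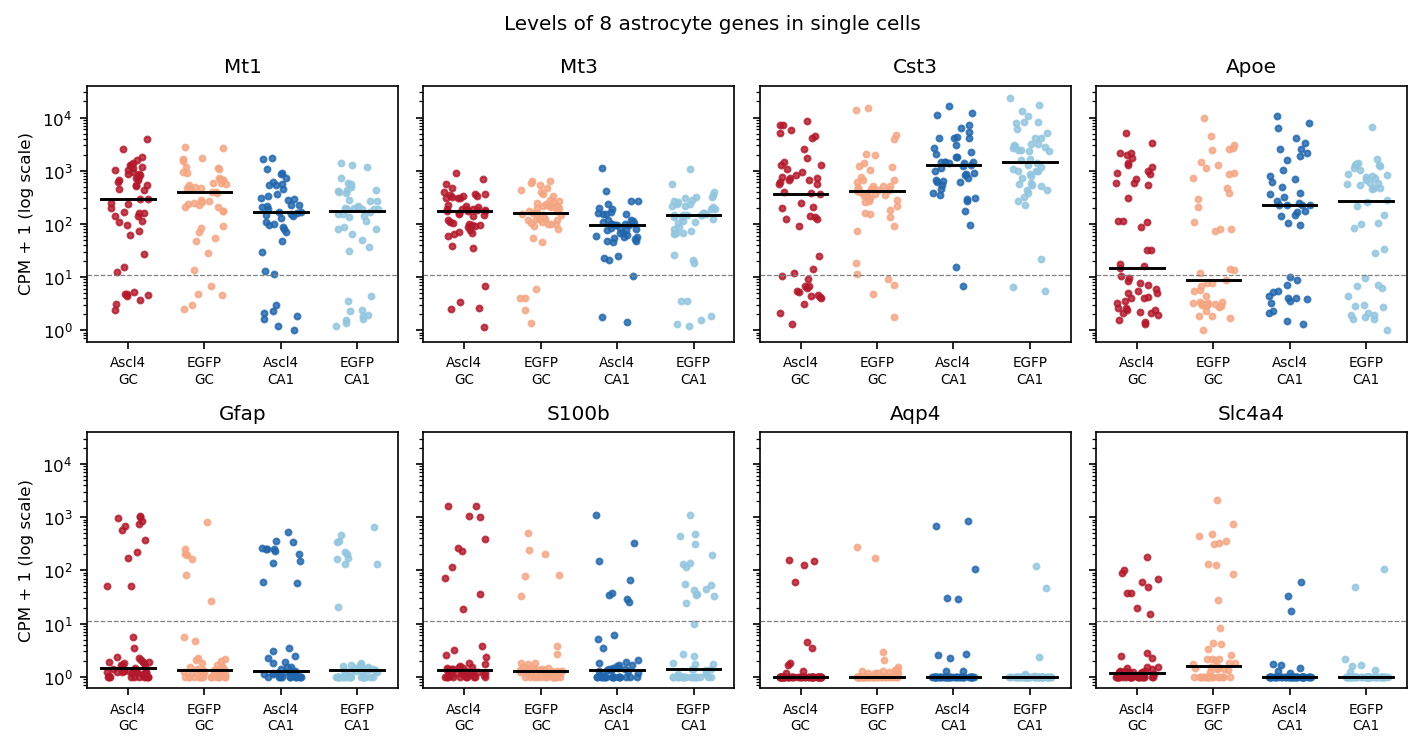
CPM + 1 (log scale) of 8 astrocyte genes in single cells of the 4 groups, with a black bar at the median cell and a dashed line at 10 CPM. Mt1, Mt3 and Cst3 are present in most cells, Apoe is spread over the whole range, and Gfap, S100b, Aqp4 and Slc4a4 have medians near 0 CPM with a minority of cells far above.

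Of the genes of glutamate and amino acid handling, the transporter gene Slc1a2 (GLT-1) was at 51.7 CPM in Ascl4 GC and 126.4 CPM in EGFP GC cells, and at 39.3 CPM in Ascl4 CA1 and 128.6 CPM in EGFP CA1 cells. The share of cells that carried it hardly differed, with 20 of 51 Ascl4 GC, 19 of 47 EGFP GC, 18 of 45 Ascl4 CA1 and 19 of 46 EGFP CA1 cells. Slc1a3 (GLAST), the transporter of the same family, was at 50.4 CPM in Ascl4 GC and 90.3 CPM in EGFP GC cells, and at 17.8 CPM in Ascl4 CA1 and 24.4 CPM in EGFP CA1 cells. Glul, which makes glutamine from glutamate, was at 83.5 CPM in Ascl4 GC and 42.4 CPM in EGFP GC cells, and at 99.96 CPM in Ascl4 CA1 and 97.02 CPM in EGFP CA1 cells. The serine and glycine transporter gene Slc7a10 was at 14.9 CPM in Ascl4 GC and 24.1 CPM in EGFP GC cells, and at 8.31 CPM in Ascl4 CA1 and 1.35 CPM in EGFP CA1 cells.

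Of the genes of water, ions and gap junctions, the broad genes Atp1b2, a sodium pump subunit, and Ttyh1, a membrane protein of the tweety family, were the most common. Atp1b2 was at 209.9 CPM in Ascl4 GC and 87.1 CPM in EGFP GC cells, and at 100.3 CPM in Ascl4 CA1 and 84.9 CPM in EGFP CA1 cells. Ttyh1 was at 114.8 CPM in Ascl4 GC and 120.4 CPM in EGFP GC cells, and at 107.3 CPM in Ascl4 CA1 and 171.7 CPM in EGFP CA1 cells. The water channel gene Aqp4 was at 10.6 CPM in Ascl4 GC and 9.47 CPM in EGFP GC cells, and at 17.5 CPM in Ascl4 CA1 and 5.29 CPM in EGFP CA1 cells, and was present in 13 cells in all. Mlc1, a membrane protein of perivascular end feet, was at 8.97 CPM in Ascl4 GC and 38.6 CPM in EGFP GC cells, and at 16.7 CPM in Ascl4 CA1 and 35.1 CPM in EGFP CA1 cells. The sodium bicarbonate cotransporter gene Slc4a4 was at 12.6 CPM in Ascl4 GC and 107.1 CPM in EGFP GC cells, and at 1.22 CPM in Ascl4 CA1 and 1.97 CPM in EGFP CA1 cells. The gap junction genes were low throughout. Gja1 (connexin 43) was at 4.37 CPM in Ascl4 GC and 11.8 CPM in EGFP GC cells, and at 4.44 CPM in Ascl4 CA1 and 0.21 CPM in EGFP CA1 cells. Gjb6 (connexin 30) was at 6.63 CPM in Ascl4 GC and 0.71 CPM in EGFP GC cells, and at 3.12 CPM in Ascl4 CA1 and 0.18 CPM in EGFP CA1 cells. The potassium channel gene Kcnj10 (Kir4.1) and the claudin gene Cldn10 were present in 5 and 15 cells in all.

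Among genes of metabolism, Aldoc, the brain aldolase, was at 363 CPM in Ascl4 GC and 441 CPM in EGFP GC cells, and at 117.5 CPM in Ascl4 CA1 and 463 CPM in EGFP CA1 cells. Aldoc reached 10 CPM in 17 of 51 Ascl4 GC, 18 of 47 EGFP GC, 13 of 45 Ascl4 CA1 and 29 of 46 EGFP CA1 cells. Prdx6, a peroxidase, was at 138.7 CPM in Ascl4 GC and 73.99 CPM in EGFP GC cells, and at 251 CPM in Ascl4 CA1 and 119.3 CPM in EGFP CA1 cells. The folate enzyme gene Aldh1l1, a standard astrocyte marker, was at 3.01 CPM in Ascl4 GC and 0.02 CPM (4 reads) in EGFP GC cells, and at 25.6 CPM in Ascl4 CA1 and 0.74 CPM in EGFP CA1 cells. Fabp7, a fatty acid binding protein of radial glia and astrocytes, was present in 16 cells in all.

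The intermediate filament gene Gfap was at 134.9 CPM (133.6 to 136.3) in Ascl4 GC and 34.2 CPM (33.40 to 34.97) in EGFP GC cells, and at 68.004 CPM in Ascl4 CA1 and 65.9 CPM in EGFP CA1 cells. Gfap reached 10 CPM in 12 of 51 Ascl4 GC, 7 of 47 EGFP GC, 13 of 45 Ascl4 CA1 and 11 of 46 EGFP CA1 cells. The calcium binding protein gene S100b, which mature oligodendrocytes are also known to express, was at 134.9 CPM in Ascl4 GC and 21.4 CPM in EGFP GC cells, and at 27.6 CPM in Ascl4 CA1 and 64.3 CPM in EGFP CA1 cells. Sox9, a transcription factor of astrocytes and neural stem cells, was the restricted gene found in most cells, 67 in all. It was at 140.3 CPM in Ascl4 GC and 87.9 CPM in EGFP GC cells, and at 92.3 CPM in Ascl4 CA1 and 77.8 CPM in EGFP CA1 cells. The 4 GC cells with more than 12000 genes gave 2.78% of its reads in Ascl4 GC cells. Among the receptors, the neurotensin receptor gene Ntsr2 was at 3.79 CPM in Ascl4 GC and 67.8 CPM in EGFP GC cells, and at 18.1 CPM in Ascl4 CA1 and 44.7 CPM in EGFP CA1 cells. The orphan receptor gene Gpr37l1 was present in 12 cells in all. Fgfr3, a receptor for fibroblast growth factors, was at 2.83 CPM in Ascl4 GC and 0.02 CPM (4 reads) in EGFP GC cells, and at 0.05 CPM (10 reads) in Ascl4 CA1 and 14.7 CPM in EGFP CA1 cells.

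In granule cells, Ascl4 GC was set against EGFP GC to ask whether astrocyte genes differed with the Ascl4 virus. Ratios are log2 after adding 1 CPM to both groups, so low genes have smaller ratios than their fold. A gene entered when its mean over the 4 groups was at least 5 CPM, which 11262 genes and 29 of the 31 astrocyte genes met (not Gjb6 and Fgfr3), and it was counted when it differed at least 2-fold. Of the 29, 4 (13.8%) were higher in Ascl4 GC cells, S100b (2.60), Aldh1l1 (1.98), Gfap (1.95) and Atp1b2 (1.26), while 17.9% of all 11262 genes were. A further 7 (24.1%) were lower, Ntsr2 (-3.84), Kcnj10 (-3.31), Slc4a4 (-2.99), Cldn10 (-2.13), Mlc1 (-1.99), Slc1a2 (-1.27) and Gja1 (-1.25), while 20.1% of all genes were. The other 18 lay between. The median log2 ratio of the 29 was -0.11 and that of all 11262 genes -0.05. Of these calls, 4 higher and 6 lower were also at least 2-fold in the mean of per-cell CPM without the highest cell of each group (Slc1a2 was not), which 13.1% and 14.9% of all genes were. The shares of astrocyte genes in summed reads lay near those of all genes in both directions.

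Ntsr2 (chromosome 12, 16653382 to 16660227, plus strand) held 0 to 58.6 CPM in single Ascl4 GC cells with a median of 0, and 0 to 2144 CPM in EGFP GC cells with a median of 0.24. It was present in 4 of 51 Ascl4 GC (7.84%, 2.18 to 18.9%) and 6 of 47 EGFP GC cells (12.8%, 4.83 to 25.7%). Both groups were mostly at or near 0, so their ranges overlapped, and the highest cell gave 40.02% of the Ascl4 GC and 55.7% of the EGFP GC reads. Kcnj10 (chromosome 1, 172341210 to 172374085, plus strand) was at 0.43 CPM in Ascl4 GC and 13.2 CPM in EGFP GC cells. Single cells held 0 to 14.1 CPM in Ascl4 GC and 0 to 548 CPM in EGFP GC cells, with medians of 0, and it was present in 1 of 51 Ascl4 GC and 2 of 47 EGFP GC cells. The highest cell gave 58.7% of its reads in Ascl4 GC and 56.7% in EGFP GC cells. Slc4a4 (chromosome 5, 88886818 to 89239653, plus strand) held 0 to 175.04 CPM in Ascl4 GC cells with a median of 0.20, and 0 to 2087 CPM in EGFP GC cells with a median of 0.58. It was present in 10 of 51 Ascl4 GC and 11 of 47 EGFP GC cells, so the groups differed in the height of the high cells and hardly in their number, and the highest cell gave 25.2% of the Ascl4 GC and 46.2% of the EGFP GC reads. S100b (chromosome 10, 76253853 to 76261159, plus strand) held 0 to 1648 CPM in Ascl4 GC cells with a median of 0.31, and 0 to 494 CPM in EGFP GC cells with a median of 0.27. It was present in 11 of 51 Ascl4 GC (21.6%, 11.3 to 35.3%) and 6 of 47 EGFP GC cells (12.8%, 4.83 to 25.7%), and the 4 highest Ascl4 GC cells were those with more than 12000 genes. The highest cell gave 38.3% of the S100b reads in Ascl4 GC and 44.6% in EGFP GC cells.

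Without those 4 cells the picture in granule cells changed. Atp1b2 remained as the 1 gene counted higher, and 12 of 29 were lower, beside 17.5% and 21% of all genes. The median log2 ratio of the 29 was then -0.70. S100b stood at 22.9 CPM in the remaining 47 Ascl4 GC cells against 21.4 CPM in EGFP GC cells (0.09), and Gfap at 66.1 against 34.2 CPM (0.93). Aqp4 stood at 0.10 CPM in the remaining Ascl4 GC cells against 9.47 CPM in EGFP GC cells (-3.26), Gja1 at 0.06 against 11.8 CPM (-3.59), and Aldh1l1 at 0 against 0.02 CPM. The summed level of the restricted genes was 332 CPM in the remaining Ascl4 GC cells against 558 CPM in EGFP GC cells, and that of the defining markers 236 against 168.2 CPM. This rule left out cells of Ascl4 GC only, while EGFP GC kept its own high cells, with up to 4345 CPM of restricted genes. With each gene's highest cell left out of both groups, mean per-cell CPM of the restricted genes summed to 412 in Ascl4 GC and 405 in EGFP GC. Mbp moved with the 4 cells of more than 12000 genes. It stood at 5754 CPM in all Ascl4 GC cells and at 95.6 CPM in Ascl4 GC cells without them, against 438 CPM in EGFP GC cells. The part of oligodendrocyte RNA in the astrocyte values was not tested.

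The same question was asked in CA1 pyramidal cells. Of 29 genes, 7 (24.1%) were higher in Ascl4 CA1 cells, Aldh1l1 (3.93), Gpr37l1 (2.28), Gja1 (2.17), Slc7a10 (1.99), Aqp4 (1.55), Bcan (1.1) and Prdx6 (1.07), while 15.3% of all 11262 genes were. A further 8 (27.6%) were lower, Kcnj10 (-2.48), Aldoc (-1.97), Cldn10 (-1.95), Fabp7 (-1.69), Slc1a2 (-1.69), Ntsr2 (-1.26), S100b (-1.19) and Mlc1 (-1.03), while 14.8% of all genes were. The other 14 lay between, and the median of the 29 was -0.20 beside -0.00 for all genes. With the mean without the highest cell also required, 5 were higher and 8 lower, beside 11.3% and 10.1% of all genes. Bcan was not among the 5, since 1 cell gave 92.9% of its Ascl4 CA1 reads and its ratio was -1.10 without the highest cell, and neither was Prdx6. Without the Ascl4 CA1 cell of more than 12000 genes, 6 were higher and 8 lower, beside 15.4% and 14.9% of all genes.

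Aldh1l1 (chromosome 6, 90486427 to 90600203, plus strand) held 0 to 991 CPM in Ascl4 CA1 cells and 0 to 40.8 CPM in EGFP CA1 cells, with medians of 0. It was present in 4 of 45 Ascl4 CA1 (8.89%, 2.48 to 21.2%) and 1 of 46 EGFP CA1 cells (2.17%, 0.06 to 11.5%), and the highest cell gave 60.02% of the Ascl4 CA1 and 98.4% of the EGFP CA1 reads. Kcnj10, at 0.29 CPM in Ascl4 CA1 and 6.20 CPM in EGFP CA1 cells, held 0 to 9.94 CPM in single Ascl4 CA1 and 0 to 349 CPM in single EGFP CA1 cells. It was present in 0 of 45 Ascl4 CA1 (up to 7.87%) and 2 of 46 EGFP CA1 cells, with 96.8% of the Ascl4 CA1 and 62.1% of the EGFP CA1 reads in the highest cell. Gpr37l1 (chromosome 1, 135160234 to 135167681, minus strand), at 4.38 CPM in Ascl4 CA1 and 0.11 CPM in EGFP CA1 cells, held 0 to 410.03 CPM in single Ascl4 CA1 and 0 to 1.21 CPM in single EGFP CA1 cells. It was present in 2 of 45 Ascl4 CA1 and 0 of 46 EGFP CA1 cells, with 72.7% of the Ascl4 CA1 and 39.3% of the EGFP CA1 reads in the highest cell. Gja1 (chromosome 10, 56377330 to 56402513, plus strand) held 0 to 218.8 CPM in Ascl4 CA1 and 0 to 9.20 CPM in EGFP CA1 cells and was present in 2 of 45 Ascl4 CA1 and 0 of 46 EGFP CA1 cells. The highest cell gave 56.3% of its Ascl4 CA1 reads, and without that cell of over 12000 genes its ratio was 1.29, and that of Aqp4 0.77. In each of these genes at most 4 cells of a group were far above the rest, and the median cell of both groups was at 0. Aldoc differed in its number of cells too, and its median was 1.28 CPM in Ascl4 CA1 against 317 CPM in EGFP CA1 cells, with 0 to 1713 CPM in Ascl4 CA1 and 0 to 10127 CPM in EGFP CA1 cells. Its ratio was -2.10 without the highest cell, and -1.11 and -2.41 in the first and second run of title numbers.

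**Figure D4:**
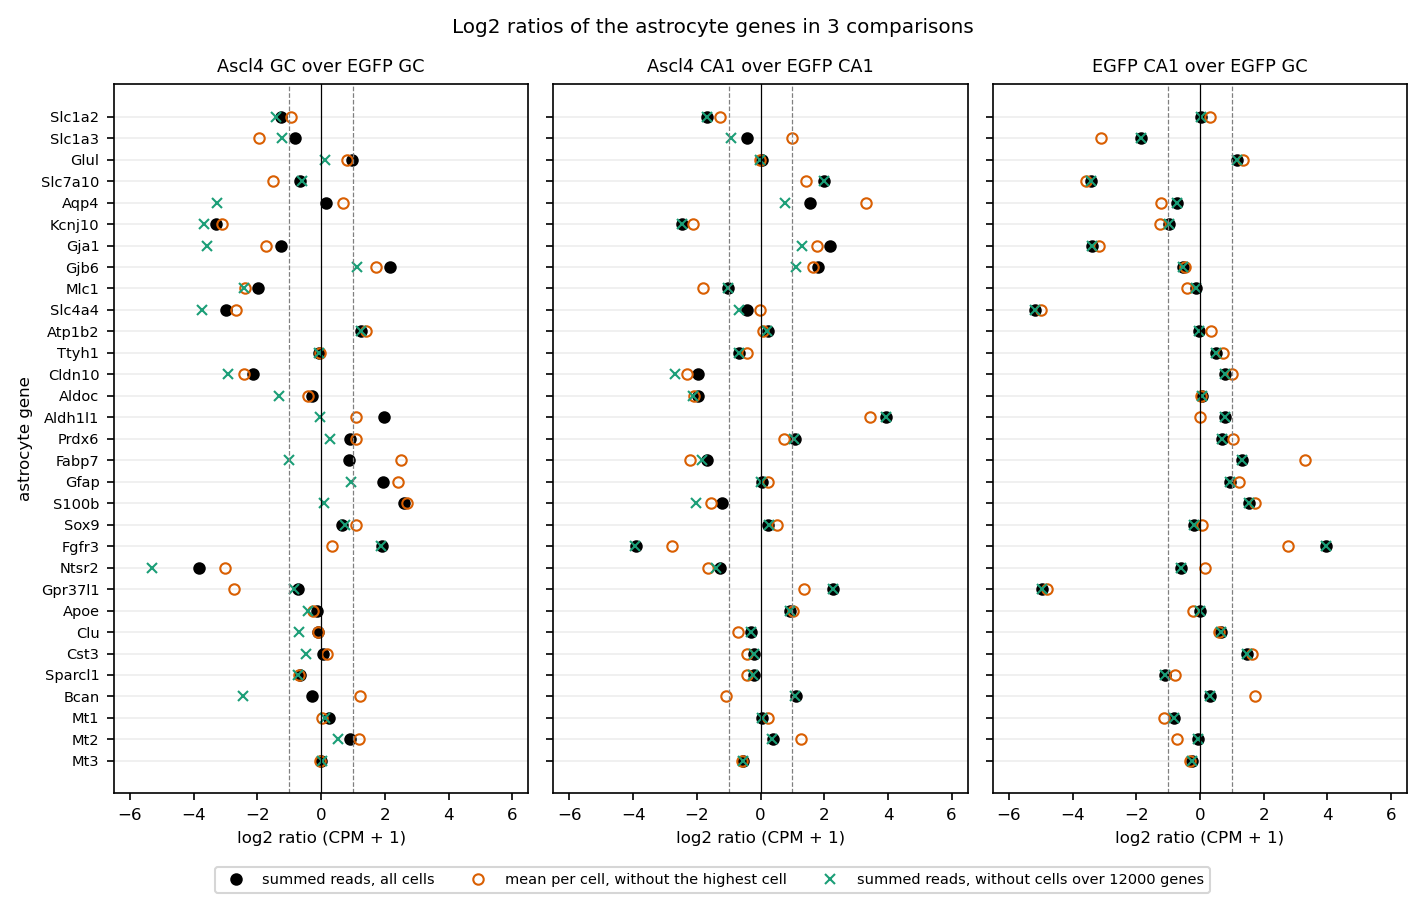
Log2 ratio (CPM + 1) of each astrocyte gene in the 3 comparisons, for summed reads of all cells (filled), for the mean of per-cell CPM without the highest cell (open) and for summed reads without cells over 12000 genes (crosses), with dashed lines at 2-fold. In granule cells the crosses of Aqp4, Gja1, Aldh1l1, S100b and Bcan lie far left of the filled symbols. In the Ascl4 CA1 panel the symbols part for some genes, such as Aqp4 and Bcan. No EGFP cell had over 12000 genes, so crosses and filled symbols coincide in the EGFP panel.

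A group of 5 genes was counted lower with Ascl4 in both cell types, namely Slc1a2, Kcnj10, Mlc1, Cldn10 and Ntsr2, and the 2 comparisons share no cells. In summed reads they are 17.2% of the 29, while 4.26% of all 11262 genes were at least 2-fold lower in both. Their log2 ratios in GC and CA1 were -1.27 and -1.69 for Slc1a2, -3.31 and -2.48 for Kcnj10, -1.99 and -1.03 for Mlc1, -2.13 and -1.95 for Cldn10, and -3.84 and -1.26 for Ntsr2. In the first run of title numbers Mlc1 was 3.24, Cldn10 0.02 and Kcnj10 -0.02 in GC, and Ntsr2 was 0.65 in CA1. Kcnj10 was present in 5 cells in all, Cldn10 in 15, Mlc1 in 20 and Ntsr2 in 22. Kcnj10 and Cldn10 entered with means of 5.02 and 5.55 CPM, and only their EGFP levels brought them past 5 CPM. Their lower calls thus depend in part on the filter, and the share of 17.2% is given as a description only. In GC the ratio of Slc1a2 was -0.94 without the highest cell, so it was not counted under both rules. Slc1a2 kept its direction in both runs of both cell types (-1.86 and -0.79 in GC, -1.43 and -1.81 in CA1). Gene by gene other members went opposite ways, Gja1 with -1.25 in GC and 2.17 in CA1 and S100b with 2.60 in GC and -1.19 in CA1.

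The comparison of EGFP CA1 with EGFP GC cells asked which astrocyte genes differed between the cell types without the Ascl4 virus. It shares its cells with both comparisons above. Of 29 genes, 4 (13.8%) were higher in CA1, S100b (1.54), Cst3 (1.48), Fabp7 (1.32) and Glul (1.17), while 22% of all genes were. A further 6 (20.7%) were lower, Slc4a4 (-5.19), Gpr37l1 (-4.95), Slc7a10 (-3.42), Gja1 (-3.40), Slc1a3 (-1.85) and Sparcl1 (-1.08), while 17.3% of all genes were. The median of the 29 was -0.04 and that of all genes 0.05. With the mean without the highest cell also required, 4 were higher and 5 lower, beside 18.7% and 12.6% of all genes. Slc4a4 held 0 to 106.9 CPM in EGFP CA1 and 0 to 2087 CPM in EGFP GC cells, and was present in 2 of 46 EGFP CA1 (4.35%, 0.53 to 14.8%) and 11 of 47 EGFP GC cells (23.4%, 12.3 to 38.03%). In Slc4a4 the highest cell gave 64.4% of the EGFP CA1 and 46.2% of the EGFP GC reads. Gpr37l1, at 0.11 CPM in EGFP CA1 and 33.5 CPM in EGFP GC cells, was present in 0 of 46 EGFP CA1 and 5 of 47 EGFP GC cells, with highest cells of 1.21 CPM in EGFP CA1 and 1296 CPM in EGFP GC. In both genes the median cell of both groups was below 1 CPM. Slc7a10 (chromosome 7, 35186385 to 35201114, plus strand) held 0 to 52.9 CPM in EGFP CA1 and 0 to 468 CPM in EGFP GC cells and was present in 3 of 46 EGFP CA1 and 8 of 47 EGFP GC cells. Gja1 held 0 to 9.20 CPM in EGFP CA1 and 0 to 318.5 CPM in EGFP GC cells and was present in 0 of 46 EGFP CA1 and 3 of 47 EGFP GC cells. Cst3 was present in 44 of 46 EGFP CA1 and 43 of 47 EGFP GC cells, and its median was 1483 CPM in EGFP CA1 against 423 CPM in EGFP GC cells.

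Restricted genes were found together in some cells more than in others. Their number at 10 CPM went with the number of genes detected after every cell was thinned to 500000 reads (Spearman's rho 0.43 in Ascl4 GC, 0.39 in EGFP GC, 0.38 in Ascl4 CA1 and 0.46 in EGFP CA1 cells, over 51, 47, 45 and 46 cells). Without the cells over 12000 genes it was 0.26 in Ascl4 GC and 0.33 in Ascl4 CA1 cells. Both measures of a point come from the same library and its complexity. Outside the 5 cells above, the cell with most was an EGFP GC cell (number 72) with 10 restricted genes, among them Mlc1 at 953 CPM, Gpr37l1 at 569.7 CPM, S100b at 494 CPM, Slc4a4 at 444 CPM and Aqp4 at 170.8 CPM. It also held the granule cell gene C1ql2 at 673 CPM. Taken gene by gene, restricted genes were only loosely tied. The median Spearman's rho over all their pairs was 0.32 in Ascl4 GC, 0.13 in EGFP GC, 0.15 in Ascl4 CA1 and 0.06 in EGFP CA1 cells, and without the cells over 12000 genes 0.04 in Ascl4 GC and 0.07 in Ascl4 CA1 cells.

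**Figure D5:**
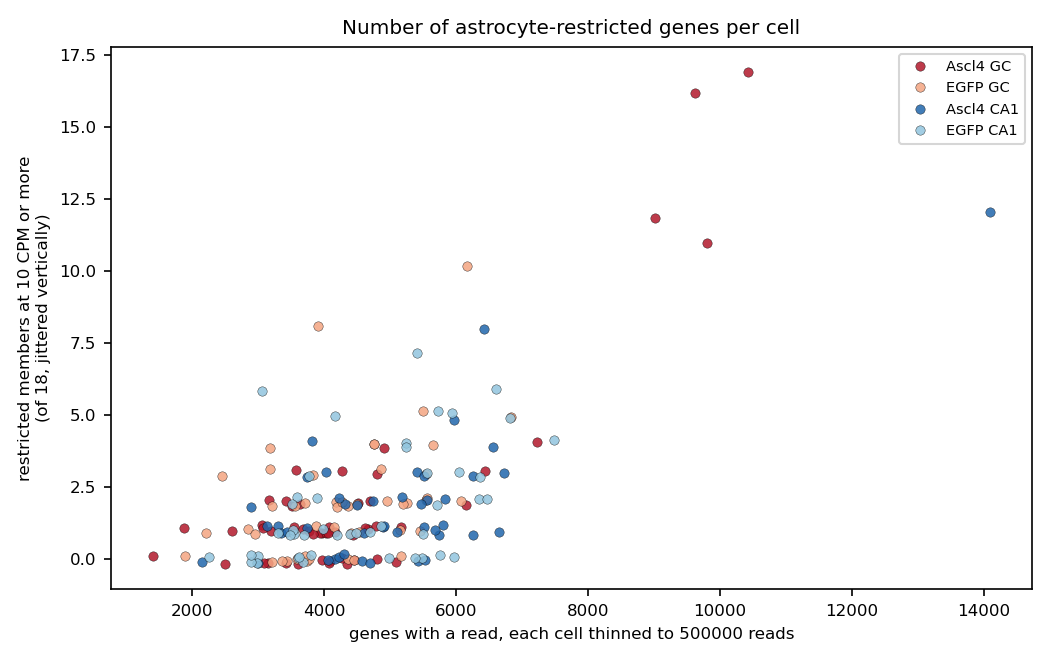
Number of the 18 restricted astrocyte genes at 10 CPM or more in each cell (jittered vertically) against the genes with a read after thinning to 500000 reads, by group. Most cells lie between 0 and 5 restricted genes, and the 4 Ascl4 GC cells and the Ascl4 CA1 cell at the upper right, with 11 to 17 restricted genes, are those with more than 12000 genes.

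Cst3 went with the microglia list, 20 genes that do not include it. Spearman's rho of Cst3 with the list's summed level was 0.54 in Ascl4 GC, 0.39 in EGFP GC, 0.79 in Ascl4 CA1 and 0.86 in EGFP CA1 cells, and without the cells over 12000 genes it was 0.42 in Ascl4 GC and 0.77 in Ascl4 CA1 cells. Apoe had a rho with the list of 0.26 in Ascl4 GC, 0.22 in EGFP GC, 0.66 in Ascl4 CA1 and 0.13 in EGFP CA1 cells. Without the cells over 12000 genes that of Apoe was 0.13 in Ascl4 GC and 0.65 in Ascl4 CA1 cells. The sum of all 13 broad genes had a rho of 0.36 in Ascl4 GC, 0.27 in EGFP GC, 0.76 in Ascl4 CA1 and 0.79 in EGFP CA1 cells. The 11 broad genes without Cst3 and Apoe had a rho of 0.06 in Ascl4 GC, 0.09 in EGFP GC, 0.11 in Ascl4 CA1 and 0.33 in EGFP CA1 cells. The sum of the restricted genes had a rho of 0.12 in Ascl4 GC, 0.12 in EGFP GC, 0.33 in Ascl4 CA1 and 0.27 in EGFP CA1 cells with the same list. The cells of a group, their libraries and depth are shared by both axes. The microglia list summed to 1761 CPM in Ascl4 GC against 790 CPM in EGFP GC cells, and to 4854 CPM in Ascl4 CA1 against 2326 CPM in EGFP CA1 cells. Single cells ranged over 0.25 to 16597 CPM in Ascl4 GC, 0.27 to 16091 CPM in EGFP GC, 1.15 to 61146 CPM in Ascl4 CA1 and 7.99 to 24145 CPM in EGFP CA1 cells. Of 19 microglia genes that entered, 11 were at least 2-fold higher and 0 lower in Ascl4 GC, beside 17.9% and 20.1% of all genes. In Ascl4 CA1 cells 10 were higher and 0 lower, beside 15.3% and 14.8% of all genes. With the mean without the highest cell also required, 6 were higher in Ascl4 CA1 cells, beside 11.3% of all genes. In EGFP CA1 against EGFP GC cells 17 of the 19 microglia genes were higher and 0 lower, beside 22% and 17.3% of all genes. Cst3 was also higher in CA1 there. The direction in CA1 differed between the runs of title numbers, with a list sum of 2474 CPM in Ascl4 CA1 against 3938 CPM in EGFP CA1 cells in the first run and 6773 against 1438 CPM in the second. In GC it was 1775 CPM in Ascl4 GC against 164.3 CPM in EGFP GC cells in the first run and 1745 against 1108 CPM in the second. Without the cells over 12000 genes the list summed to 1324 CPM in Ascl4 GC and 4862 CPM in Ascl4 CA1 cells. The part of microglial RNA in Cst3 and Apoe was not tested.

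Further astrocyte genes, 49 in the table and none of them among the 31, were lower in sum with Ascl4. They summed to 699.7 CPM in Ascl4 GC against 1166 CPM in EGFP GC cells, and to 604 CPM in Ascl4 CA1 against 1036 CPM in EGFP CA1 cells. Over all cells, the GC difference lay almost wholly in the 4 genes of highest mean level, named below. The median log2 ratio of all 49 genes was -0.008 in GC and -0.37 in CA1. Without the cells over 12000 genes the sums were 562 CPM in Ascl4 GC and 594 CPM in Ascl4 CA1 cells. Ascl4 cells were lower in each run of title numbers too, with 777 CPM in Ascl4 GC against 848 CPM in EGFP GC cells in the first run and 606 against 1327 CPM in the second, and with 633 CPM in Ascl4 CA1 against 986 CPM in EGFP CA1 cells in the first and 581 against 1063 CPM in the second. The median cell held 325 CPM in Ascl4 GC and 721 CPM in EGFP GC cells, and 507 CPM in Ascl4 CA1 and 953 CPM in EGFP CA1 cells. Of 26 that entered, 5 were at least 2-fold higher and 6 lower in Ascl4 GC (median log2 ratio -0.44), and 3 were higher and 12 lower in Ascl4 CA1 cells (-0.80). With the mean without the highest cell also required, the counts were 3 and 4 in GC and 3 and 6 in CA1. The shares of all genes called in these comparisons are those given above for the 31 genes. The median was -0.31 in GC and -0.09 in CA1 in the mean without the highest cell, and 0.05 in GC and -0.31 in CA1 in the first run. The 4 highest by mean level were Mmd2, Scg3, Plpp3 and Cspg5, of which Scg3, a granin, and Cspg5, a proteoglycan, are also made by neurons. Mmd2 was at 102.1 CPM in Ascl4 GC against 379 CPM in EGFP GC cells, and at 181.9 CPM in Ascl4 CA1 against 259 CPM in EGFP CA1 cells. Cspg5 was at 19.8 against 165.6 CPM in GC and at 31.6 against 48.0 CPM in CA1, Scg3 at 48.8 against 79.6 CPM and at 70.4 against 129.3 CPM, and Plpp3, a lipid phosphatase, at 14.5 against 22.9 CPM and at 69.04 against 178.1 CPM, each with Ascl4 before EGFP. At 2-fold, Mmd2 and Cspg5 were counted lower in GC alone, Plpp3 in CA1 alone and Scg3 in neither.

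Genes that reactive astrocytes raise after injury, Gfap among them, gave a split picture. Of 37 in the table, 15 entered, and 7 were higher and 3 lower in Ascl4 GC cells, beside 17.9% and 20.1% of all genes. In Ascl4 CA1 cells 8 were higher and 3 lower, beside 15.3% and 14.8% of all genes. The list summed to 728.6 CPM in Ascl4 GC against 379 CPM in EGFP GC cells, and to 1522 CPM in Ascl4 CA1 against 384 CPM in EGFP CA1 cells. In Ascl4 CA1 cells 3 cells held 58.3% of the summed per-cell level, and the highest held 24049 CPM. Summed over means of per-cell CPM without each gene's highest cell, the list was at 490.1 CPM in Ascl4 GC against 206.4 CPM in EGFP GC cells, and at 663 CPM in Ascl4 CA1 against 225.4 CPM in EGFP CA1 cells. In the first run of title numbers the CA1 sums were 501 CPM in Ascl4 CA1 and 399.99 CPM in EGFP CA1 cells. With the mean without the highest cell also required, 6 were higher and 2 lower in Ascl4 GC, beside 13.1% and 14.9% of all genes. In Ascl4 CA1 cells 6 were then higher and 3 lower, beside 11.3% and 10.1% of all genes. Without the cells over 12000 genes the list summed to 612 CPM in Ascl4 GC and 1530 CPM in Ascl4 CA1 cells. H2-D1, a class I histocompatibility gene that interferon induces in many cell types, was at 345 CPM in Ascl4 GC against 7.21 CPM in EGFP GC cells and at 785 CPM in Ascl4 CA1 against 47.4 CPM in EGFP CA1 cells. Cd14, a co-receptor of innate immunity that microglia express as well, was at 29.1 CPM in Ascl4 GC against 0.06 CPM in EGFP GC cells and at 288 CPM in Ascl4 CA1 against 47.9 CPM in EGFP CA1 cells. Its CA1 log2 ratio was -0.38 in the first run of title numbers and 7.63 in the second. Serpina3n, a protease inhibitor strongly induced in reactive astrocytes, was at 38.7 CPM in Ascl4 GC against 81.98 CPM in EGFP GC cells and at 29.8 CPM in Ascl4 CA1 against 65.3 CPM in EGFP CA1 cells. Its log2 ratio was -1.06 in GC and -1.11 in CA1, and -0.30 in GC and -1.06 in CA1 without the highest cell. Cells that held it at 10 CPM numbered 7 of 51 in Ascl4 GC and 9 of 47 in EGFP GC. Ptgs2, which activity induces in neurons, was at 4.36 CPM in Ascl4 GC against 155.9 CPM in EGFP GC cells and at 23.7 CPM in Ascl4 CA1 against 10.2 CPM in EGFP CA1 cells. A list of 20 interferon genes shares no gene with the reactive list. It summed to 926 CPM in Ascl4 GC against 32.7 CPM in EGFP GC cells. In CA1 it summed to 779 CPM in Ascl4 CA1 against 65.2 CPM in EGFP CA1 cells. It summed to 959.6 CPM in Ascl4 GC and 786 CPM in Ascl4 CA1 cells without the cells over 12000 genes. The part of interferon in the levels of the reactive genes was not tested.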

How the data were processed

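Single neurons were patched in slices, and their RNA was sequenced as 1 library per cell. Reads were mapped with STAR to GRCm38.p4 and counted with HTSeq, per the submitters' processing notes. No settings, strand or quality control rules are stated, so reads of overlapping genes and of near-identical copies are uncertain. The authors deposited read counts per gene for all 228 cells and for those that passed quality control. Cells held in both tables had identical counts. Another deposited table of normalised signal equals the counts divided by 1 factor per cell. The labels state 52 Ascl4 GC, 53 EGFP GC, 51 Ascl4 CA1 and 48 EGFP CA1 cells as passed, and the table used held 51, 47, 45 and 46 cells.

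Reads were summed per group without 92 spike-in rows, which held 4 reads, and scaled to CPM. Ratios used a pseudocount of 1 CPM and genes with a mean of at least 5 CPM over the groups. All 31 genes were named. Group levels were given for those with a mean of at least 20 CPM and for the defining markers, and single-cell values for the 4 largest ratios past 2-fold in each comparison. Up to 4 further genes of each other list were named by mean level, and Aldoc and the cell with 10 restricted genes were picked after their values were seen. The second call rule, without the highest cell, was added after seeing the data. The 31 genes and all lists were chosen with earlier results of these data known. Genome positions are from GENCODE vM21. Only the summed-read ratio and the thinning were tested, the ratio on simulated counts of genes of higher level. That simulation did not model genes carried by few cells. TMM factors came from edgeR 4.0.16 and size factors from DESeq2 1.42.0 in R 4.3.3, and all else from Python 3.11.15 with scipy 1.17.1, pandas 2.3.3, numpy 2.4.6 and, for plots, matplotlib 3.10.9. Alternatives covered scaling, pseudocount, filters, fold, cells left out, runs of title numbers, thinning and the deposited normalised signal.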

Additional observations from a re-analysis of the deposited data

Results flagged for a closer look

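Over all cells, Gja1 and S100b went opposite ways with Ascl4 in the 2 cell types. The log2 ratio of Gja1 was -1.25 in granule cells and 2.17 in CA1 cells, a difference of -3.42, and that of S100b was 2.60 in granule cells and -1.19 in CA1 cells, a difference of 3.79. Neither difference was tested, since each group is 1 sample. Without the cells over 12000 genes the ratio of Gja1 was -3.59 in granule cells and 1.29 in CA1 cells, and that of S100b was 0.09 in granule cells and -2.02 in CA1 cells. In the first run of title numbers Gja1 was -0.07 in granule cells and 0.02 in CA1 cells, and S100b was 0.52 in granule cells and 0.70 in CA1 cells, the same way in both. In the second run Gja1 was -0.82 in granule cells and 2.77 in CA1 cells, and S100b was 3.33 in granule cells and -1.44 in CA1 cells.

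Cells of the full count table that were not in the quality-controlled table entered no comparison, and they also held restricted astrocyte genes. They outnumber the cells that the labels state as not passed. Their summed level was 1131 CPM in 13 EGFP GC cells, 613 CPM in 13 Ascl4 CA1 cells and 708 CPM in 8 EGFP CA1 cells, each above the level of the kept cells of the same group. In 5 such Ascl4 GC cells it was 48.04 CPM (41.1 to 55.8).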

How the results depend on the processing

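No alternative can add a test, since each group is 1 sample. No paired analysis was possible because the title numbers are unique to each cell. Of 36 ratios counted at least 2-fold, 30 kept their direction under all alternatives and 6 reversed at least once. The counts of astrocyte genes, 4 higher and 7 lower in Ascl4 GC against EGFP GC, 7 and 8 in Ascl4 CA1 against EGFP CA1, and 4 and 6 in EGFP CA1 against EGFP GC, moved by over 1.5 times as follows. Higher genes in GC were 7 with the mean of per-cell CPM, 9 without the highest cell, 7 after thinning, and 8 in each run of title numbers. Of all genes, 18.8% were higher in GC with the mean of per-cell CPM, 18.7% without the highest cell and 18.8% after thinning. In the first and second run 31.7% and 19.2% of all genes were. Without cells over 12000 genes GC had 1 higher and 12 lower, beside 17.5% and 21% of all genes. In the EGFP comparison 8 were higher without the highest cell and 10 in the first run, beside 26.2% and 31.8% of all genes. With the authors' normalised values 10 were lower there, beside 25.7% of all genes. These values moved the median of all genes to -0.18. A pseudocount of 10 CPM left 2 higher and 2 lower in CA1, beside 8.33% and 8.04% of all genes. A mean of at least 20 CPM left 4 lower in GC, 1 higher and 5 lower in CA1, and 3 lower in the EGFP comparison, as fewer genes entered. Of the 8139 genes with that mean, 17% were lower in GC and 14.4% lower in the EGFP comparison. In CA1 10.9% of them were higher and 11.1% lower. Requiring a read in 25% of cells and 10 CPM, both in 1 group, left 4 higher in CA1. Of all genes that met this, 14.5% were higher in CA1. At 1.5-fold, GC had 9 higher and 11 lower, beside 27.2% and 30.7% of all genes. The EGFP comparison had 9 and 10, beside 32% and 26.9% of all genes. Reversals of single genes were Bcan in CA1 at -1.10 without the highest cell and -2.17 in the first run, and Aldh1l1 in GC at -0.027 without cells over 12000 genes and -0.059 in the first run. In the first run Mlc1 was 3.24 and Cldn10 0.016 in GC, and S100b 0.70 and Ntsr2 0.65 in CA1. The cause of the other shifts was not tested.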
